A study of Homo sapiens with 24 samples.

Results

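The 42 genes described here belong to the response that the transcription factor ATF4 drives in cells short of amino acids. They were chosen by name: a probe counted as a member when the arrays' annotation gave it 1 of the 42 gene names, with the tRNA synthetases under their older symbols such as AARS. All 42 had a probe on both array designs, out of 20553 gene names matched to the reference on the design of 16 arrays and 21420 on the design of 8 arrays. Earlier results of these same arrays were known when the names were picked, in particular that many of them were high with genistein, so the values with genistein and wogonin are given as a description with no test.

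The 24 arrays were 2-colour Agilent arrays, 1 for each condition, on 3 slides of 8 arrays. On each array the control RNA was labelled with Cy3 and the treated RNA with Cy5, with no dye swap. The value used throughout is the log2 ratio of treated over control, so that 1 is a doubling. No condition was repeated within a cell line, and the only error at hand for a single array is the technical error of the scanner software, which stands after each ± sign and leaves out the spread between cultures.

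Genistein, an isoflavone of soy, was given to the prostate cancer lines PC3 and DU145, and the control was labelled as untreated. The study instead describes the control cells of its genistein profiling as vehicle treated, and its methods name the vehicle as DMSO. Labels and study differ, so whether the ratio holds an effect of the solvent cannot be told from the labels. Wogonin, a flavone of skullcap root, was given to SAS and FaDu, lines of head and neck squamous carcinoma, against DMSO. The labels give neither dose nor time for either compound. The study's methods name 1 concentration of genistein, renewed daily over several days, with no word on whether the array samples were taken from the same cultures. The lines differ between the compounds, so the values of both compounds stand side by side without a comparison of the compounds. The other 20 arrays held siRNA transfections against a control siRNA (si-CAV2 in the renal cancer lines A498 and 786O, si-LAMB3 in FaDu and SAS, si-GOLM1 in DU145 and PC3), miRNA transfections against a control miRNA (miR-145 in PC3, DU145 and LNCap, miR-143 in DU145 and PC3, miR-23b, miR-24 and miR-27b in PC3, miR-27b in 786O and A498, miR-375 in FaDu, miR-29a in SAS) and the chemokine CXCL10 in 786O for 12 and 24 h against no treatment. A slide held several treatments, but all arrays of a treatment on 1 design lay on the same slide, so slide and treatment cannot be told apart.

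Line identity was checked in the control channels, and the markers did not part the lines cleanly. Of the prostate markers KLK3 and TMPRSS2, LNCap had both well above background, PC3 had TMPRSS2 alone and DU145 had KLK3 alone. A498 had 4 of 4 and 786O 3 of 4 renal markers well above background, and FaDu had 5 of 5 and SAS 4 of 5 squamous markers. DU145 also had 2 of 5 squamous markers, and PC3 and SAS had 2 of 4 renal markers each. The siRNA targets were low on their arrays, at -3.80 and -3.20 for CAV2, -3.02 and -4.15 for GOLM1, and -2.50 in FaDu but only -0.89 in SAS for LAMB3. Between 53.2 and 68.9% of spots were well above background in a channel, and no spot was saturated.

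ATF4 is made when the initiation factor eIF2 is phosphorylated, by GCN2 when amino acids run short, by PERK when proteins misfold in the endoplasmic reticulum, by PKR with double-stranded RNA and by HRI with lack of heme. Most translation then slows, while the ATF4 message, whose short upstream reading frames normally hold it back, is translated more. ATF4 pairs with C/EBP proteins on a composite DNA element and switches on genes for amino acid synthesis and uptake, for the charging of tRNAs, and for a feedback that removes the phosphate from eIF2 again. With long stress its partner DDIT3, also called CHOP, adds genes linked to cell death.

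The core of that composite element was looked for upstream of the members, because it is the sequence the members' regulation is known for. The letters searched were TGATGNAA, on both strands, in the 250 bases before each gene's start in RefSeq on GRCh38.p14. Of the members, 33 had an entry and 6 of these (18.2%) held the letters, as did 3.19% of all 27305 promoters and 2.27% of the 13485 promoters of genes on the design of 16 arrays. No entry was found for NUPR1, PSPH, SHMT2, ALDH1L2, SLC7A11, GARS, MARS, SARS and YARS. The 6 matches are printed in windows of 30 bases along the gene's strand, with the matching letters in capitals. In ATF3 and ASNS the match ran along the gene's strand and in the other 4 on the opposite strand, where the same complement, TTGCATCA, was found each time. These are matches of letters and no evidence of binding.
ATF3 (chr1:212565205-212565234, + strand): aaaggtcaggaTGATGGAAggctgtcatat
CHAC1 (chr15:40953251-40953280, + strand): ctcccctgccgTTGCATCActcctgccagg
ASNS (chr7:97872458-97872487, - strand): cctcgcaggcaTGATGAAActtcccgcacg
AARS (chr16:70289675-70289704, - strand): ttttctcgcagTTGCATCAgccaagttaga
IARS (chr9:92293698-92293727, - strand): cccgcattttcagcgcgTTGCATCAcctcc
FGF21 (chr19:48755459-48755488, + strand): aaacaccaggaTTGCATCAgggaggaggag

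With genistein, 32 of the 41 members measured in both lines were above 0.5 in PC3 and in DU145, and 1, SLC38A2, was below -0.5 in both. Of all 14429 genes measured in both lines, 8.28% were above 0.5 and 5.7% below -0.5 in both. As the choice of members leaned on this contrast, nothing is read from the gap. The median over the members was 1.89 in PC3 and 0.92 in DU145, beside 0.09 and 0.01 over all genes, and 38 of the 41 were higher in PC3 than in DU145, as were 55.8% of all genes. FGF21, a secreted hormone, was the member left out, since neither DU145 channel read it well above background.

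With wogonin, no member of 41 was above 0.5 in both lines and 4 (DDIT3, GDF15, SLC38A2 and VLDLR) were below -0.5 in both. Of all 13918 genes, 6.17% were above and 4.15% below in both. The 2 lines parted: the members' median was 0.25 in SAS and -0.44 in FaDu, 39 of 41 were higher in SAS than in FaDu, and the median difference of SAS minus FaDu was 0.84, beside -0.01 over all genes, of which 49.4% were higher in SAS. In SAS alone 14 of 41 members were above 0.5 and 4 below -0.5, beside 20.5% and 17.1% of all genes. In FaDu alone 0 of 42 were above and 20 below, beside 15.7% and 9.8% of all genes.

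**Figure D1:**
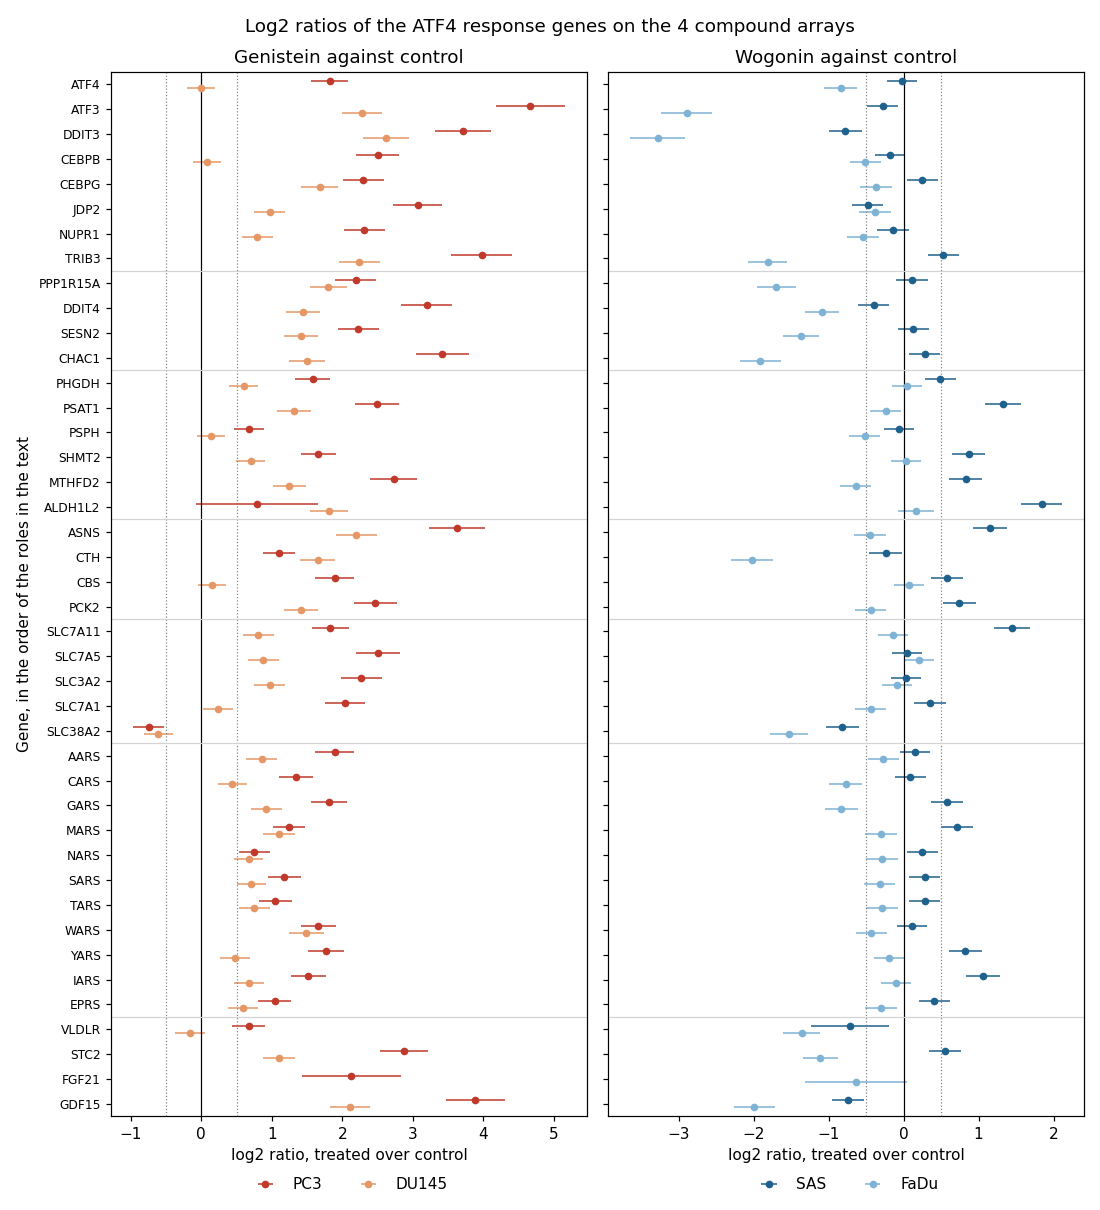
Log2 ratio of treated over control (horizontal axis) of each of the 42 genes (vertical axis, in the order of the roles in the text) with genistein in PC3 and DU145 (left) and wogonin in SAS and FaDu (right). Points are single arrays, bars the scanner software's technical error, and dotted lines 0.5 and -0.5. Points of genistein lie mostly right of 0.5, with PC3 farther out, SLC38A2 lies left of 0 on all 4 arrays, and the FaDu points lie mostly left of the SAS points.

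Among the transcription factors and their partners, 6 of 8 were above 0.5 in both genistein lines. ATF4 itself, whose activity is set mainly by translation, was at 1.82 ± 0.26 in PC3 and 0.00 ± 0.20 in DU145. It stood at -0.02 ± 0.20 with wogonin in SAS and -0.84 ± 0.22 in FaDu. The ATF4 message was thus above its control on 1 of the 4 compound arrays. In DU145 32 of 41 members were above 0.5, beside 18.3% of all genes. As the choice of members leaned on these values, nothing is read from that count.

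ATF3, a stress-induced repressor of the same family, had the highest ratio of any member on the PC3 array, 4.67 ± 0.49, and 2.28 ± 0.29 in DU145, against -0.28 ± 0.21 in SAS and -2.89 ± 0.34 in FaDu. DDIT3 was at 3.71 ± 0.40 in PC3 and 2.62 ± 0.32 in DU145, the highest of any member there, and at -0.78 ± 0.22 in SAS and -3.28 ± 0.37 in FaDu. TRIB3, a pseudokinase that binds ATF4 and dampens it, was at 3.98 ± 0.43 in PC3, 2.24 ± 0.29 in DU145, 0.53 ± 0.21 in SAS and -1.81 ± 0.26 in FaDu. For these 3 genes PC3 lay above DU145 and SAS above FaDu, as was so for 38 and 39 of the 41 members.

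The C/EBP partners went separate ways with genistein. CEBPG, the usual partner of ATF4 on amino acid genes, was at 2.30 ± 0.29 in PC3 and 1.68 ± 0.26 in DU145, and at 0.25 ± 0.21 in SAS and -0.37 ± 0.21 in FaDu. CEBPB, which also serves inflammatory genes, was at 2.50 ± 0.31 in PC3 but 0.08 ± 0.20 in DU145, and at -0.18 ± 0.20 in SAS and -0.51 ± 0.21 in FaDu. CEBPG was thus above its control in both prostate lines and CEBPB in PC3 alone. JDP2, a repressor related to ATF3, was at 3.07 ± 0.35, 0.97 ± 0.22, -0.48 ± 0.21 and -0.38 ± 0.21 in PC3, DU145, SAS and FaDu. NUPR1, a small chromatin-binding stress protein, was at 2.31 ± 0.29, 0.79 ± 0.22, -0.14 ± 0.21 and -0.54 ± 0.21 in the same order.

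All 4 feedback and stress effectors were above 0.5 in both genistein lines, with a median of the means of 2.16. PPP1R15A, also called GADD34, brings a phosphatase to eIF2 and was at 2.19 ± 0.29 in PC3, 1.80 ± 0.26 in DU145, 0.11 ± 0.21 in SAS and -1.70 ± 0.26 in FaDu. DDIT4, an inhibitor of the growth kinase mTORC1, was at 3.20 ± 0.36, 1.44 ± 0.24, -0.40 ± 0.21 and -1.09 ± 0.23 in that order. SESN2, a leucine sensor that also holds mTORC1 back, was at 2.23 ± 0.29, 1.42 ± 0.24, 0.13 ± 0.21 and -1.37 ± 0.24. In FaDu all 4 effectors were below -1, whereas in SAS none was past 0.5 either way. CHAC1, an enzyme that breaks down glutathione, was at 3.42 ± 0.38 in PC3, 1.50 ± 0.25 in DU145, 0.28 ± 0.21 in SAS and -1.91 ± 0.27 in FaDu. On the scanner's signal scale, CHAC1 read 1556 in control and 16663 in genistein treated PC3 cells, and 7844 and 2085 in the FaDu pair with wogonin. Its second probe gave values within 0.5 of these on every compound array, as it read 3.23, 1.41, 0.41 and -1.88.

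Serine is built from a glycolytic intermediate by PHGDH, PSAT1 and PSPH in turn, and SHMT2, MTHFD2 and ALDH1L2 pass its carbon into the folate cycle of mitochondria. Of these 6, 5 were above 0.5 in both genistein lines. PSAT1 was at 2.49 ± 0.31 in PC3 and 1.32 ± 0.24 in DU145, and also at 1.32 ± 0.24 with wogonin in SAS, against -0.24 ± 0.21 in FaDu. PHGDH was at 1.58 ± 0.25 and 0.60 ± 0.21 with genistein and at 0.49 ± 0.21 and 0.05 ± 0.20 with wogonin in SAS and FaDu. PSPH, the last step of serine synthesis, was the exception at 0.68 ± 0.21 in PC3 and 0.14 ± 0.20 in DU145, and at -0.06 ± 0.20 and -0.52 ± 0.21 with wogonin. The first enzymes of the branch were therefore past 0.5 in both prostate lines and the last in PC3 only.

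MTHFD2 was at 2.73 ± 0.33 in PC3, 1.25 ± 0.23 in DU145, 0.83 ± 0.22 in SAS and -0.64 ± 0.21 in FaDu, so that the wogonin lines lay past 0.5 on opposite sides. SHMT2 was at 1.66 ± 0.25, 0.70 ± 0.21, 0.87 ± 0.22 and 0.03 ± 0.20 in the same order. ALDH1L2 was at 1.81 ± 0.27 in DU145 and at 1.84 ± 0.27 in SAS, its array's highest member, and at 0.17 ± 0.24 in FaDu. In PC3 its ratio of 0.79 ± 0.86 is not reliable: the control signal of the probe was too close to background, and the treated signal of 16.2 bounds the change only as at least 1.02-fold higher. Such bounds set the bright channel against the lowest signal well above background in the other channel and are open to dye bias. Without that value 31 members remained above 0.5 in both genistein lines.

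Of the other amino acid enzymes, ASNS, which makes asparagine, had the highest ratios, at 3.63 ± 0.40 in PC3 and 2.20 ± 0.29 in DU145. With wogonin it was at 1.15 ± 0.23 in SAS and -0.45 ± 0.21 in FaDu. Its signal was 5715 in control and 70832 in treated PC3 cells, and 19067 and 87718 in the DU145 pair, with no spot saturated. CTH, which makes cysteine, was 1 of the 3 members whose ratio was higher in DU145 than in PC3, at 1.65 ± 0.25 against 1.10 ± 0.23, and it stood at -0.24 ± 0.22 in SAS and -2.02 ± 0.28 in FaDu. CBS, the step before CTH, was at 1.89 ± 0.27 in PC3 and 0.15 ± 0.20 in DU145, and at 0.58 ± 0.21 in SAS and 0.07 ± 0.20 in FaDu. The paired enzymes of cysteine synthesis thus had unlike ratios in DU145 or in FaDu. PCK2, the mitochondrial enzyme that turns oxaloacetate into phosphoenolpyruvate, was at 2.47 ± 0.31, 1.42 ± 0.24, 0.74 ± 0.22 and -0.44 ± 0.21 in PC3, DU145, SAS and FaDu. Its other probe read 2.68 and 1.52 with genistein but 0.11 and -1.16 with wogonin, so the wogonin values depended on the probe.

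The transporters held the one member that was low on every compound array. SLC38A2, which takes up small neutral amino acids, was at -0.75 ± 0.22 in PC3, -0.61 ± 0.21 in DU145, -0.82 ± 0.22 in SAS and -1.53 ± 0.25 in FaDu. A second probe read -0.85, -0.26, -0.77 and -1.47, so that with the mean of both probes SLC38A2 was no longer past -0.5 in DU145. The other 4 transporters were above 0 in both prostate lines. SLC7A11, which trades glutamate for cystine, was at 1.83 ± 0.26 in PC3, 0.81 ± 0.22 in DU145, 1.44 ± 0.24 in SAS and -0.14 ± 0.20 in FaDu. SLC7A5, the leucine carrier, was at 2.51 ± 0.31, 0.88 ± 0.22, 0.04 ± 0.20 and 0.21 ± 0.20 in that order. Its partner chain SLC3A2, which SLC7A11 shares, was at 2.27 ± 0.29, 0.97 ± 0.22, 0.03 ± 0.20 and -0.09 ± 0.20. SLC7A5 and SLC3A2 were alike on each of the 4 arrays to within 0.3, and SLC7A11 differed from both in SAS. SLC7A1, the carrier of arginine and lysine, was at 2.04 ± 0.28 in PC3 and 0.24 ± 0.21 in DU145, and at 0.35 ± 0.21 and -0.44 ± 0.21 in SAS and FaDu.

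The synthetases that load amino acids onto tRNAs in the cytosol had smaller ratios than most of the regulators: 9 of the 11 members were above 0.5 in both genistein lines, and their medians were 1.34 (PC3) and 0.71 (DU145). WARS, for tryptophan, was at 1.66 ± 0.25 and 1.49 ± 0.25, AARS, for alanine, at 1.89 ± 0.27 and 0.86 ± 0.22, and GARS, for glycine, at 1.81 ± 0.26 and 0.92 ± 0.22. IARS, for isoleucine, was at 1.52 ± 0.25 and 0.68 ± 0.21, SARS, for serine, at 1.18 ± 0.23 and 0.71 ± 0.21, and TARS, for threonine, at 1.05 ± 0.23 and 0.75 ± 0.22. EPRS, for glutamate and proline, was at 1.04 ± 0.23 and 0.59 ± 0.21, and NARS, for asparagine, at 0.75 ± 0.22 and 0.67 ± 0.21. Only CARS, for cysteine, and YARS, for tyrosine, missed 0.5 in DU145, at 0.44 ± 0.21 and 0.48 ± 0.21, after 1.34 ± 0.24 and 1.77 ± 0.26 in PC3. These last values lie within their technical error of 0.5, so the count of 9 hangs on small differences. It also hangs on the probe, as a second SARS probe read 0.43 in PC3 and 1 of the 2 other IARS probes 0.39 in DU145.

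MARS, for methionine, was at 1.24 ± 0.23 in PC3 and 1.10 ± 0.23 in DU145. The gene lies tail to tail with DDIT3, and the MARS probe (hg19 chr12:57910373-57910432, + strand) sits next to the DDIT3 probe (hg19 chr12:57911200-57911526, - strand). A second MARS probe read 0.90 in PC3 but 0.24 in DU145, so the DU145 value depended on the probe. With wogonin the 11 synthetases ran from 0.09 ± 0.21 (CARS) to 1.06 ± 0.23 (IARS) in SAS and from -0.83 ± 0.22 (GARS) to -0.10 ± 0.20 (IARS) in FaDu. All 11 were above 0 in SAS and below 0 in FaDu, and 4 (GARS, MARS, YARS and IARS) were above 0.5 in SAS.

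The other synthetases of the cell were set beside these, from a list that leaves out the members. Of the 9 other cytosolic synthetases, FARSB, a chain of the phenylalanine enzyme, and LARS, for leucine, were above 0.5 in both genistein lines, and the median of the 9 was -0.11 in PC3 and -0.02 in DU145. Of the 17 mitochondrial synthetases MARS2 alone was above 0.5 in both lines, and their median was -0.28 in PC3 and 0.31 in DU145. MARS2 had wide technical errors, at 0.86 ± 0.74 and 1.95 ± 0.70. HARS, for histidine, at -0.38 and -0.40, and QARS, for glutamine, at -0.41 and -0.36, were the lowest of the other cytosolic enzymes.

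**Figure D2:**
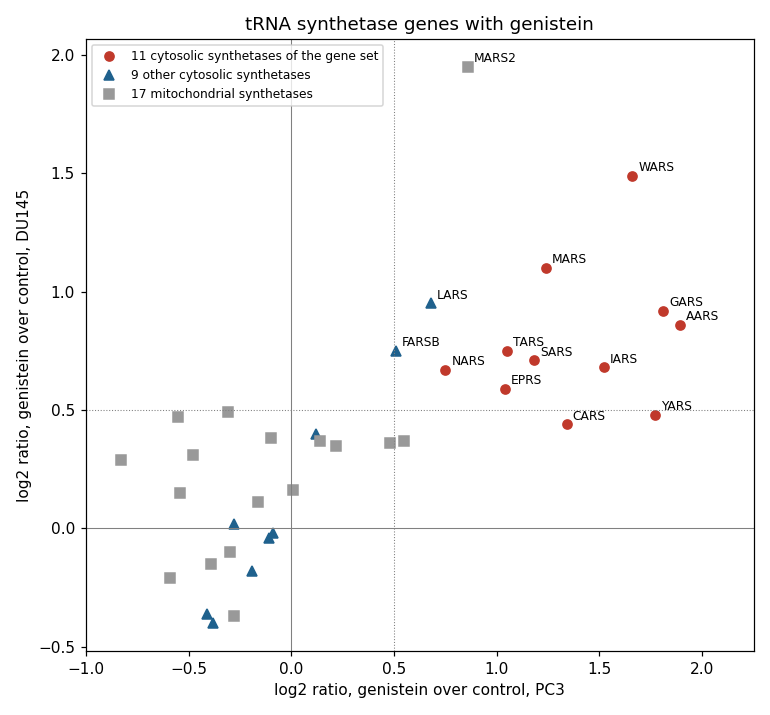
Log2 ratio of genistein over control in PC3 (horizontal axis) and DU145 (vertical axis) for the 11 member synthetases of the cytosol, the 9 other cytosolic and the 17 mitochondrial synthetases. Each point is 1 gene, dotted lines mark 0.5, and all 11 members lie right of 0.5, with CARS and YARS just under 0.5 in DU145, while most other synthetases lie near 0.

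Of the secreted factors and the receptor, GDF15, a stress hormone that acts on appetite, was at 3.89 ± 0.42 in PC3, 2.11 ± 0.28 in DU145, -0.74 ± 0.21 in SAS and -1.99 ± 0.27 in FaDu. GDF15 and DDIT3 were the only members above 0.5 in both genistein lines and below -0.5 in both wogonin lines. In SAS their wogonin control was the highest of the SAS controls, as given below. STC2, a secreted glycoprotein, was at 2.87 ± 0.34, 1.10 ± 0.23, 0.55 ± 0.21 and -1.11 ± 0.23 in PC3, DU145, SAS and FaDu. VLDLR, a lipoprotein receptor, was at 0.67 ± 0.24 in PC3, -0.16 ± 0.21 in DU145, -0.71 ± 0.52 in SAS and -1.36 ± 0.25 in FaDu. Its other probe, well above background on 1 of these arrays, read 1.01 in DU145, against the -0.16 of the brighter probe. FGF21 was well above background only in the treated channel of the PC3 array, where it was at least 2.19-fold higher, and with wogonin in FaDu only in the treated channel, where no fold could be given.

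For the 4 ATF3 probes the picture was less even. The brightest and 2 others gave 3.11 to 4.69 in PC3, 1.71 to 2.38 in DU145 and -3.28 to -2.04 with wogonin in FaDu, while the fourth read 0.60, 0.06 and 0.17. With wogonin in SAS all 4 ran from -0.28 to 0.50, so no direction is given for ATF3 there.

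**Figure D3:**
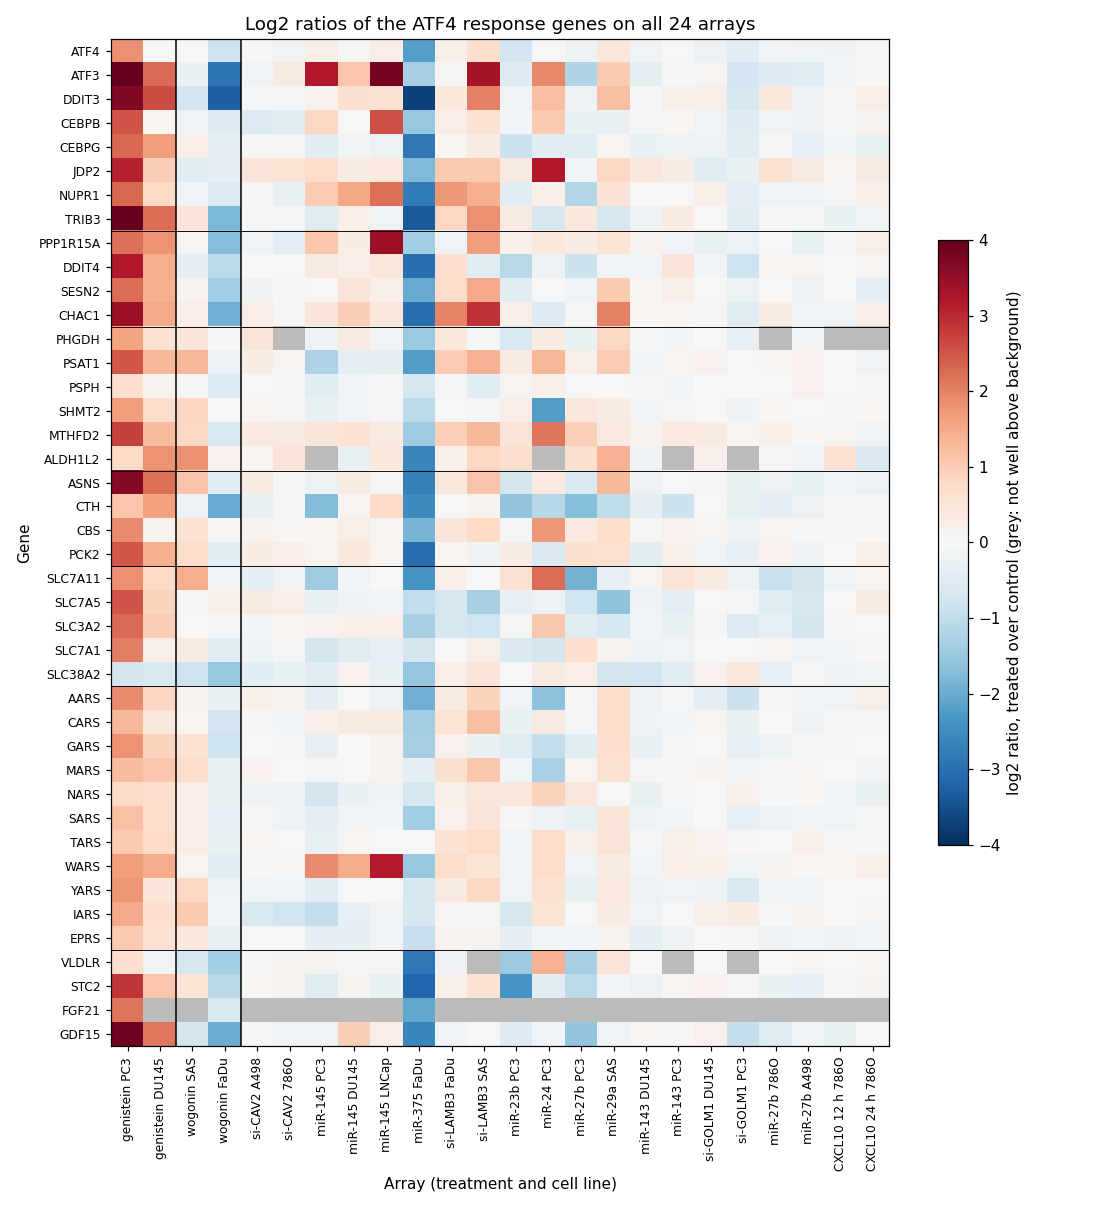
Log2 ratio of treated over control (colour, red for higher and blue for lower in treated cells) of the 42 genes (rows) on all 24 arrays (columns). Grey marks genes that neither channel read well above background. The genistein columns are mostly red and the miR-375 column mostly blue, while the 8 columns from miR-143 DU145 to CXCL10 24 h are pale.

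Other genes of the pathway, outside the 42, were put through limma, which took the mean of both lines against 0 and the spread from all treatments of the design. The lists of these genes were also drawn up with earlier results known, so the calls are a description and nothing is read from their share. With genistein 5 of 55 were called at an adjusted p under 0.05, all higher, where 4.52% of all 14178 genes were called higher. SLC1A4, a carrier of alanine, serine and cysteine, was at 2.11 in PC3 and 2.05 in DU145 (mean 2.08, SE 0.38, limma adjusted p = 0.024). TUBE1, a tubulin that is a known ATF4 target, was at 1.75 and 1.90 (mean 1.82, SE 0.23, limma adjusted p = 0.012). The autophagy gene WIPI1 was at 0.61 and 0.87 (limma adjusted p = 0.033). LARS was at 0.68 and 0.95, and EIF2S2, the beta subunit of eIF2, at 0.81 and 0.73 (limma adjusted p = 0.037 for each). Without the PC3 array 0 of the 55 were called, without the DU145 array 4.

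By size, 11 of the 18 other ATF4 targets were above 0.5 in both genistein lines, as were 8.28% of all genes, and their medians were 1.16 and 0.60 in PC3 and DU145. The list was drawn up with genistein results known, so this count too is a description. Beside SLC1A4, TUBE1 and WIPI1 these were EIF4EBP1, which holds back cap-dependent translation, at 1.18 and 0.99, XPOT, the exporter of tRNAs from the nucleus, at 1.86 and 0.74, and SQSTM1, an autophagy receptor, at 2.44 and 0.64. The others were PYCR1, of proline synthesis, at 1.01 and 0.54, GPT2, an alanine transaminase, at 1.15 and 0.74, and VEGFA, the blood vessel growth factor, at 1.71 and 0.56. HERPUD1, of the disposal of misfolded proteins, was at 1.04 and 0.83, and INHBE, an activin chain, at 1.69 ± 0.89 and 1.12 ± 0.55. None of these 8 was called by limma (adjusted p from 0.053 to 0.25 for the 7 tested), and INHBE was not tested because it was not measured on enough arrays.

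The kinases and subunits upstream of ATF4 stood closer to 0 with genistein. The messages of GCN2 (EIF2AK4, 0.37 and 0.23), PERK (EIF2AK3, -0.06 and 0.29), PKR (EIF2AK2, -0.12 and -0.19) and HRI (EIF2AK1, 0.33 and -0.53) did not pass the test. These kinases act by phosphorylation, which the arrays do not measure. The median of the 12 genes measured was 0.12 in PC3 and 0.22 in DU145.

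With wogonin 2 of 55 other pathway genes were called, both lower, where 0.807% of all 13754 genes were called lower. HERPUD1 was at -1.80 in SAS and -3.88 in FaDu (mean -2.84, SE 0.42, limma adjusted p = 0.03). WIPI1 was at -2.04 and -1.49 (mean -1.76, SE 0.16, limma adjusted p = 0.0081). KLHL24, at -3.67 and -1.31, and PERK, at -0.66 and -1.56, were below -0.5 in both lines without passing the test (limma adjusted p = 0.065 and 0.069). Above 0.5 in both lines were EIF2S1, the alpha subunit of eIF2 that carries the phosphate, at 0.73 and 0.81, and MARS2 at 1.96 ± 0.57 and 1.04 ± 0.65 (limma adjusted p = 0.055 and 0.13). Without the SAS array 1 gene was called and without the FaDu array 5.

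Over the 20 transfection and CXCL10 arrays the members had 810 measured values, of which 104 were above 0.5 and 107 below -0.5. A single array, miR-375 in FaDu, held 40 of the 107. On the 19 others the number of members above 0.5 ran from 0 to 24 and the number below -0.5 from 0 to 13, and the members' median from -0.27 to 0.57. Of the 41 members measured on at least 2 of the 20 arrays, 17 had both genistein values above every one of them, among them DDIT3, TRIB3, CEBPG, DDIT4, ASNS and GDF15, and 32 had the PC3 value above every one, beside 4.76% and 14.6% of all 17484 genes. These counts use the values that the choice of members leaned on, and nothing is read from them. Of the 16 arrays of that design, the DU145 genistein array had the most spots well above background, at 67.6% in the control and 68.9% in the treated channel, and the FaDu wogonin array the fewest in the control channel, at 55.0%. The part of this in the ratios was not tested.

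**Figure D4:**
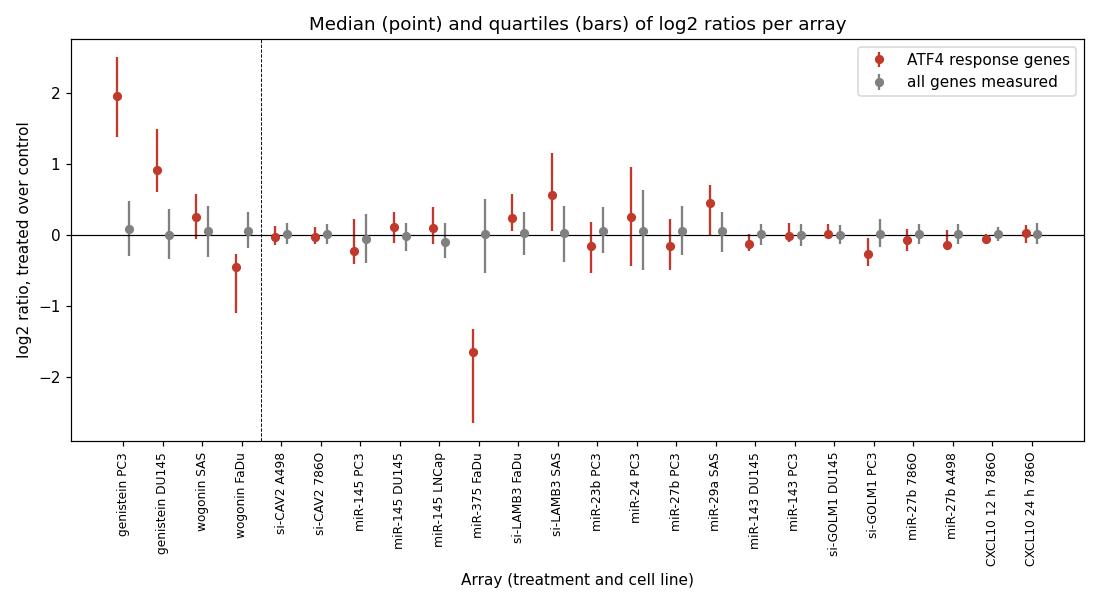
Median (points) and quartiles (bars) of the log2 ratio of treated over control (vertical axis) for the 42 ATF4 response genes and for all genes measured, on each of the 24 arrays (horizontal axis). The medians of all genes stay between -0.10 and 0.09, while those of the ATF4 response genes reach 1.96 with genistein in PC3 and -1.65 with miR-375 in FaDu.

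With miR-375 in FaDu 0 of 42 members were above 0.5 and 40 were below -0.5, with a median of -1.65, beside 25.6% and 26.1% of all genes and a median of 0.02. Of the regulators, DDIT3 was at -3.72, TRIB3 at -3.37, CEBPG at -2.87, NUPR1 at -2.80, ATF4 at -2.21, JDP2 at -1.77, CEBPB at -1.53 and ATF3 at -1.32. Of the effectors, CHAC1 and DDIT4 were at -3.01 each, SESN2 at -2.02 and PPP1R15A at -1.38. All members of both groups thus lay below -1. Of the enzymes, PCK2 was at -3.03, ASNS at -2.70, ALDH1L2 at -2.65, CTH at -2.51, PSAT1 at -2.22, CBS at -1.86, PHGDH at -1.47, MTHFD2 at -1.42 and SHMT2 at -1.04. Of the transporters, the secreted factors and the receptor, STC2 was at -3.17, VLDLR at -2.86, GDF15 at -2.62, SLC7A11 at -2.36, SLC38A2 at -1.54 and SLC3A2 at -1.33, and FGF21, well above background in the control channel alone, was at least 4.26-fold lower. The synthetases spread from -1.91 (AARS) to 0.01 (TARS), with WARS at -1.52, CARS at -1.40, SARS at -1.39 and GARS at -1.34 also below -1, and TARS and MARS (-0.40) were the only members not below -0.5. For 34 of 41 members this was the lowest of the 20 arrays, as it was for 15.8% of all 18306 genes. There was 1 array of miR-375 and so no test.

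The FaDu arrays could be read channel by channel, since 3 of them shared a design: miR-375 on 1 slide, and si-LAMB3 and wogonin on another. Each level is the log2 signal of a gene's probe minus the 75th percentile of that channel. DDIT3 stood at 3.66 and 3.52 in the controls of the miR-375 and wogonin arrays but at -0.83 in the control of the si-LAMB3 array, and at -0.04, 0.23 and -0.41 in the treated channels. CHAC1 was at 4.66, 4.79 and -0.87 in the same controls and at 1.66, 2.87 and 1.11 in the treated channels. TRIB3 was at 7.66, 6.85 and 3.47 in the controls and at 4.31, 5.02 and 4.30 in the treated channels. For these genes the treated cells of the 3 arrays lay closer together than their controls did.

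The same held across the list. Over the 40 members well above background in every channel, the median range was 1.84 among the 3 controls and 0.75 among the 3 treated channels, and the controls spread wider for 37 of 40 (92.5%), against 51.4% of all 12564 genes, whose median ranges were 0.58 and 0.55. The si-LAMB3 control was the lowest of the 3 for 39 of 40 members, beside 28.6% of all genes, and the miR-375 control the highest for 33 of 40, beside 37.5% of all genes. The controls of the miR-375 and wogonin arrays, where member ratios were low, thus lay above the si-LAMB3 control for 39 of 40 members. They came from cells given a control miRNA and DMSO, and the wogonin control was the highest of the 3 for only 7 of 40. Against the mean of the 2 other controls the treated cells had a median of -0.44 with miR-375 and -0.10 with wogonin. In both cases 1 of the 2 was the low si-LAMB3 control. Such medians, here and below, set a Cy5 channel against Cy3 channels of other arrays. Except for the averaged PC3 controls below, no value over all genes stands beside them. Whether the control cells, the treatments or the handling set these levels was not tested.

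**Figure D5:**
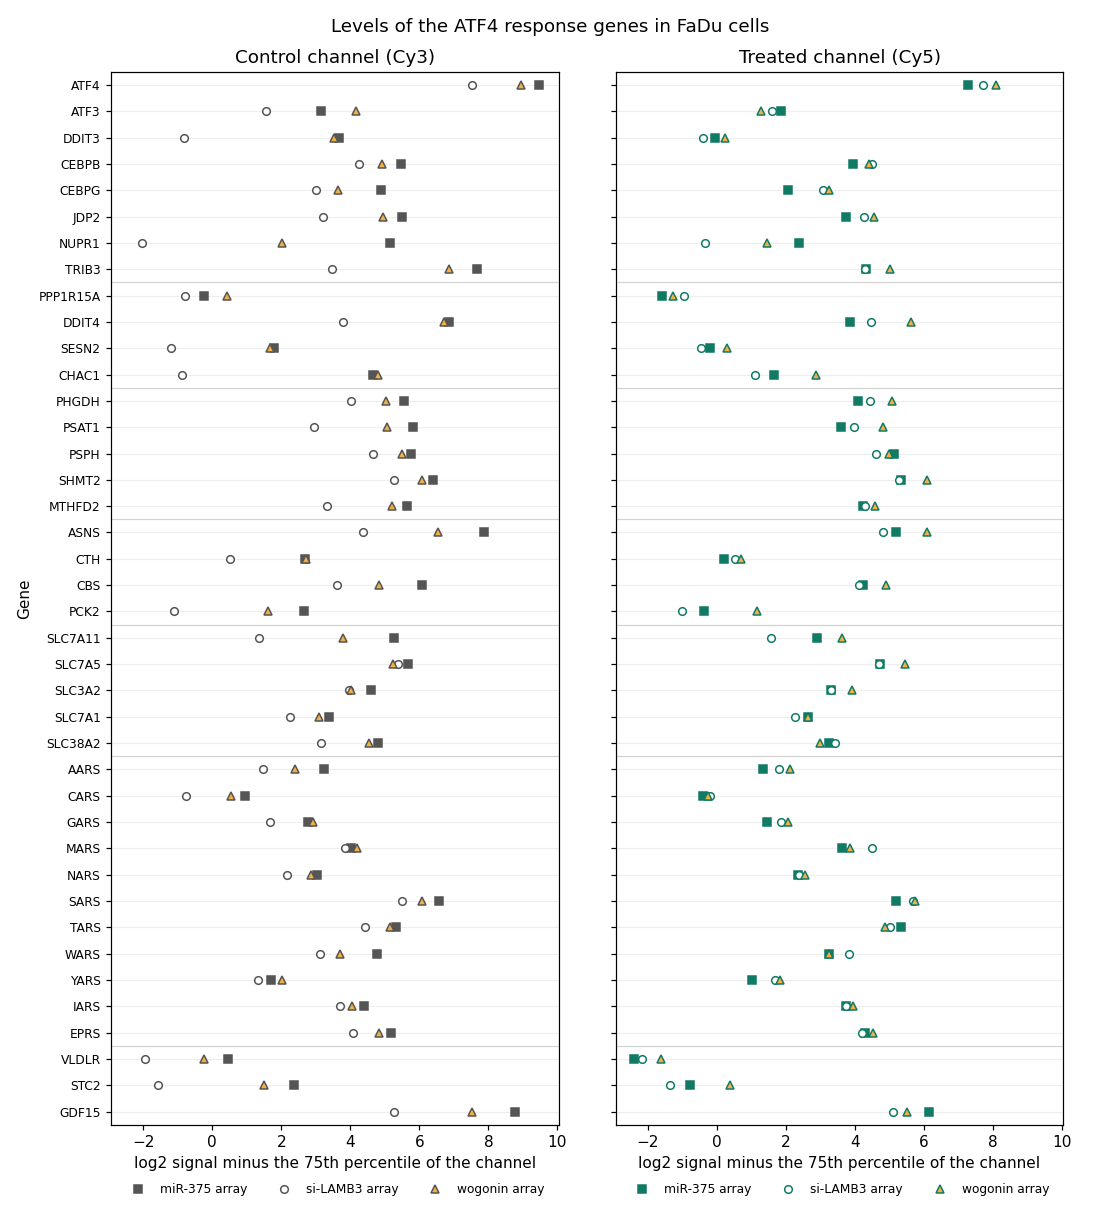
Level of 40 of the genes (vertical axis) in FaDu cells, as log2 signal minus the 75th percentile of the channel (horizontal axis), in the control channel (left) and the treated channel (right) of the miR-375, si-LAMB3 and wogonin arrays. Each point is 1 channel of 1 array. In the control panel the si-LAMB3 array lies lowest for 39 of 40 genes, and in the treated panel the 3 arrays lie closer together.

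In PC3 it was the treated side that spread. Over 40 members and 5 arrays the median range was 0.99 among the controls and 2.79 among the treated channels. The controls spread wider for 1 of 40 (2.5%), against 19.2% of all genes. Among the 5 treated channels is that of genistein, whose values the choice of members leaned on. The controls of miR-23b, miR-24 and miR-27b were also nearly alike, as given below, so nothing is read from these ranges. The genistein control of PC3 was the lowest of the 5 for 22 of 40 members, beside 28.6% of all genes. Its median was 0.38 below the mean of the 4 others (-0.38, beside 0.00 over all genes). A choice of genes by a high ratio also favours a low control, so nothing is read from this count. Against the mean of those 4 other controls the genistein treated PC3 cells had a median of 1.57, instead of 1.96 against their own control. DDIT3 was at 0.30 in the genistein control, between 1.30 and 1.63 in the other 4, and at 4.00 with genistein. In DU145, with 1 other control, the genistein control had a median of 0.29 above it, and the treated cells 1.16. In SAS the wogonin control was the highest SAS control for 22 of 39 members, beside 31.8% of all genes. Against the mean of the other SAS controls the wogonin treated cells had a median of 0.71. DDIT3 was at 2.82 in the wogonin control, 0.58 and 0.18 in those of miR-29a and si-LAMB3, and 2.03 with wogonin. GDF15 was at 5.49, 3.96, 4.50 and 4.76 in that order. The part of the controls in the SAS ratios was not tested.

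The controls of the PC3 arrays with miR-23b, miR-24 and miR-27b differed from each other by a median of 0.06 over all genes, where other pairs of controls of 1 line and design differed by 0.15 to 0.59. The labels do not say whether 1 control RNA served all 3. Averaged into 1, they left 2 other controls, and the genistein control was below both for 22 of 40 members (55.0%), beside 31.3% of all genes. The median was -0.45 against them, beside -0.03 over all genes, and 1.49 for the treated cells, beside 0.01 over all genes. The limit from the choice of members holds here too. On the miR-23b, miR-24 and miR-27b arrays 3, 15 and 4 members were above 0.5 and 13, 9 and 10 below -0.5. Of all genes 18.9, 30.0 and 21.0% were above and 14.2, 25.0 and 15.2% below.

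On the miR-24 array members went both ways. JDP2 was at 3.20, SLC7A11 at 2.22, MTHFD2 at 2.13, ATF3 at 1.93, CBS at 1.72, VLDLR at 1.39, PSAT1 at 1.32, DDIT3 at 1.20, SLC3A2 at 1.08 and CEBPB at 1.04. SHMT2 was at -2.22, AARS at -1.64, MARS at -1.30 and CTH at -1.13. MTHFD2 and SHMT2, neighbours in the folate cycle, lay at opposite ends, and the synthetases parted as well, with NARS at 0.93. With miR-23b STC2 was at -2.37, CTH at -1.58, VLDLR at -1.45 and DDIT4 at -1.11. With miR-27b in PC3 SLC7A11 was at -1.88, CTH at -1.71, GDF15 at -1.59, VLDLR at -1.32, ATF3 at -1.20, NUPR1 at -1.16 and STC2 at -1.05.

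SLC7A11 was low with miR-27b in the renal lines too, at -0.88 in 786O and -0.75 in A498. These arrays had their own controls and design. In 786O 1 of 40 members was above 0.5 and 2 below -0.5, beside 5.52% and 4.54% of all genes, and in A498 0 of 41 and 3, beside 5.44% and 4.37%. Over both renal lines no member was called (limma, 0 of 40, where 0.422% of all genes were called).

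With si-LAMB3 24 of 40 members were above 0.5 in SAS, the most on an array outside genistein, and 12 of 41 in FaDu, beside 20.6% and 15.3% of all genes, and 2 below -0.5 on each. In limma 2 of 40 members were called, both higher, where 3.63% of all genes were called higher. CHAC1 was at 1.97 in FaDu and 2.89 in SAS (mean 2.43, SE 0.55, limma adjusted p = 0.034), and NUPR1 at 1.72 and 1.41 (mean 1.56, SE 0.36, limma adjusted p = 0.037). Neither was called when either array was left out. In FaDu the control channel of this array stood apart, with CHAC1 at -0.87 and NUPR1 at -2.05, against 4.66 and 5.16 in the miR-375 control and 4.79 and 2.02 in the wogonin control. Against the mean of those 2 controls the si-LAMB3 treated FaDu cells had a median of -1.10 over 40 members, on the other side of 0 from their ratio to their own control. The median of the members was 0.43 over both lines, beside 0.02 over all genes.

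In SAS alone ATF3 was at 3.32, DDIT3 at 2.01, TRIB3 at 1.83, PPP1R15A at 1.66, SESN2 at 1.50, PSAT1 at 1.39, MTHFD2 at 1.31, CARS at 1.20, ASNS at 1.15, MARS at 1.07 and JDP2 at 1.04. In FaDu ATF3 was at 0.05 and DDIT3 at 0.41, while JDP2 was at 1.05 and PSAT1 at 1.01. The leucine carrier went the other way, with SLC7A5 at -1.34 in SAS and -0.67 in FaDu and its partner SLC3A2 at -0.81 and -0.66. The SAS control of this array was the lowest of 3 SAS controls for 26 of 39 members, beside 19.8% of all genes. Against the mean of the 2 others the treated SAS cells had a median of 0.17. The part of the controls in these ratios was not tested.

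With miR-29a in SAS 19 of 41 members were above 0.5 and 5 below -0.5, beside 15.4% and 13.1% of all genes. CHAC1 was at 2.0, ALDH1L2 at 1.38, ASNS at 1.30, DDIT3 at 1.20, ATF3 and SESN2 at 1.05 each and PSAT1 at 1.03. SLC7A5 was at -1.60 and CTH at -1.02. As on the si-LAMB3 SAS array, SLC7A5 was the lowest member while ASNS and CHAC1 were above 1.

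For miR-145 the limma fit over 3 lines called 2 of 40 members, both higher, where 3.42% of all genes were called higher. WARS was at 1.88 in PC3, 1.49 in DU145 and 3.17 in LNCap (mean 2.18, SE 0.28, limma adjusted p = 0.0036), while the median of the members was 0.01. The WARS gene is also induced by interferon. NUPR1 was at 1.03, 1.54 and 2.20 (mean 1.59, SE 0.30, limma adjusted p = 0.021). Whichever of the 3 miR-145 arrays was left out, the member calls over all transfections fell from 4 to 3. ATF3 was at 3.20, 1.10 and 3.84 and PPP1R15A at 1.11, 0.31 and 3.42 without being called, and CEBPB was at 2.59 in LNCap and 0.82 in PC3. In PC3 CTH was at -1.72, SLC7A11 at -1.41 and PSAT1 at -1.24. Above 0.5 were 6, 8 and 7 members and below -0.5 were 6, 0 and 0, in PC3, DU145 and LNCap, beside 17.1, 8.22 and 13.5% of all genes above and 19.3, 7.87 and 11.9% below.

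The remaining arrays had few members past 0.5, but for si-GOLM1 in PC3. With si-CAV2 0 of 41 were above 0.5 in A498 and 2 of 40 in 786O, and 2 and 1 were below -0.5, beside 4.64% and 4.38% of all genes above and 4.74% and 3.8% below. IARS was the lowest member in both, at -0.62 and -0.81. Over both lines limma called 0 of 40 members, where 0.0807% of all genes were called. On the 8 arrays of the other design no member passed 1 either way. With miR-143 0 of 41 members were above 0.5 in DU145 and 2 of 39 in PC3, and 1 was below -0.5 on each, beside 5.22% and 4.86% of all genes above and 4.23% and 4.77% below. With si-GOLM1 no member was past 0.5 in DU145, where 2.98% of all genes were above and 2.98% below, while in PC3 0 of 39 were above and 9 below, beside 7.91% and 5.53%, with a median of -0.27. GDF15 was lowest there at -0.96. Limma called 0 of 39 members for si-GOLM1, where 0.00696% of all genes were called, and 0 of 39 for miR-143, where 0.0205% were.

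With CXCL10 in 786O 1 of 40 members was above 0.5 at 12 h, ALDH1L2 at 0.58, and 1 was below -0.5 at 24 h, the same gene at -0.57, beside 3.39% of all genes above and 2.37% below at 12 h, and 4.08% above and 3.38% below at 24 h. The members' medians were -0.06 and 0.03. With 1 array at each time there was no test.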

How the data were processed

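RNA of 24 cell line samples was measured on 2-colour Agilent arrays. The authors deposited 1 scanner file per array, written by Agilent Feature Extraction 10.7.3.1. The deposited log ratio is log10 of Cy5 over Cy3 and was multiplied by 3.3219 to log2. The deposited intensity of each channel had been corrected for background and dye by the authors' software, and its error of the log ratio is the deposited score given after ±. The authors' series matrix held the same log10 values. Probe coordinates in the files are on hg19.

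Control spots and spots flagged as outliers were left out, and spots of a probe were averaged. The software's background flag had to be set for a share of at least 0.5 of the spots of a probe. Genes were the files' names matched to RefSeq (67.0% and 62.1% of probes on the designs of 16 and 8 arrays), each read from its brightest probe. A gene was measured where that probe passed in at least 1 channel. The limit by size was 0.5 on the log2 scale, in both lines alike. Some prostate markers are not reported here. Arrays have no read depth, so their number limits the precision.

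Limma 3.58.1 in R 4.3.3 was fitted within a design to genes measured on its arrays, with a coefficient per treatment. Benjamini-Hochberg adjustment was over all genes. A run on simulated data took its spread from the si-CAV2 arrays alone, and nothing is read from that run. The p-values of limma rest on the spread between cell lines, pooled over the treatments of a design. On the design that held the compounds, the spread of a member thus includes the line differences of genistein and wogonin, also where transfections were tested. The rest used Python 3.11.15. Named are members past 0.5 in both lines of a compound in full, members past 1 on other arrays, and other pathway genes past 0.5 in both lines or called; other values were chosen after they were seen. Members, lists and tests were chosen with earlier results of these data known. Alternatives were background correction by normexp with an offset of 50 or none, both with loess, centring on the array median, both channels above background, the mean of all probes, subtraction of the mean of other treatments, a limit of 1.0 and leaving out arrays.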

Additional observations from a re-analysis of the deposited data

Results flagged for a closer look

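Members that lay past 0.5 on opposite sides for genistein and wogonin were DDIT3, at 3.71 in PC3 and 2.62 in DU145 against -0.78 in SAS and -3.28 in FaDu, and GDF15, at 3.89 and 2.11 against -0.74 and -1.99. Members past 0.5 on opposite sides in the 2 wogonin lines, given as SAS and then FaDu, were TRIB3 (0.53 and -1.81), MTHFD2 (0.83 and -0.64), GARS (0.58 and -0.83) and STC2 (0.55 and -1.11). With 1 array for each line these differences were not tested. For DDIT3 and GDF15 the wogonin control was the highest of the SAS controls, and the treated level lay above the other controls of SAS. The technical errors of TRIB3, GARS and STC2 in SAS, 0.21 each, reach below 0.5. That of MTHFD2 in FaDu, also 0.21, reaches above -0.5.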

How the results depend on the processing

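The number of members above 0.5 in both genistein lines, 32, stayed between 30 and 32 under the other settings (31 of the same genes under both other background corrections and with both channels above background, without ALDH1L2, and 30 with the mean of other treatments subtracted, without JDP2 and NUPR1), and was 17 with a limit of 1.0. The 1 member below -0.5, SLC38A2, went to 0 with the mean of all probes, with the mean of other treatments subtracted and with a limit of 1.0. In 1 line alone 32 to 41 were above, 1 below, and the median of 1.37 was 0.92 to 1.96. With wogonin 0 members were above in both lines, but 1, SLC7A5, with the mean of other treatments subtracted, and 0 to 14 in 1 line alone. The 4 below became 0 with a limit of 1.0 and 4 to 20 in 1 line alone. The median of -0.06 was -0.45 in FaDu alone and turned to 0.25 in SAS alone, so the 2 lines lay on opposite sides of 0. The 5 other pathway genes called with genistein became 9 with normexp, 8 with no background correction, 8 with both channels above background, 0 in a fit of the genistein arrays alone and 0 to 4 when an array was left out. With wogonin 2 became 0 in a fit of its arrays alone and 1 to 5 when an array was left out. The 4 members called in transfections became 15 with normexp, 9 with no background correction, 0 in fits of each treatment alone, and 2 to 4 when an array was left out. Alternatives added after seeing the data moved the 107 member values below -0.5 on the other arrays to 67 without the miR-375 array. The cause of these changes was not tested, but a fit of 1 treatment alone has fewer arrays for the spread. No paired analysis was possible because each condition has 1 array and the labels give no shared replicate numbers. With no dye swap, dye bias is open for any single ratio.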
